A study of Mus musculus with 14 samples.

Results

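The genes described here are 38 genes of the core autophagy machinery, listed by name. The rule names the genes by symbol, and their measured values are no part of it. The list was nevertheless chosen with earlier results of these data known. Of these, 36 were in the deposited table under their current symbol, and Atg101 and Epg5 were found under older symbols by their RefSeq accessions. They are 38 of 19360 gene symbols in the table, and all 38 were among the 14565 genes with enough reads to be tested. Anterior cortex was taken from 14 mice of strain C57BL/6J at 15 months of age, and each mouse gave 1 library. Of these mice, 4 were wild-type (WT), 6 carried 1 DG allele of Vcp (DG/+) and 4 carried 2 DG alleles (DG/DG). The title of the series calls the mutation an autosomal dominant hypomorph and concerns the disaggregation of tau filaments. The labels give no sex, litter or batch and do not spell out DG.

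Autophagy encloses cytoplasm, organelles or protein aggregates in a new vesicle, the autophagosome, which fuses with the lysosome so that its content is degraded. The ULK1 kinase complex starts the process, and a class III PI3-kinase complex marks the forming membrane with the lipid PI3P. Lipid transfer proteins then enlarge the membrane, and a set of ubiquitin-like conjugation enzymes attaches ATG8 proteins (LC3 and GABARAP families) to it. Cargo receptors bind both ATG8 proteins and cargo, and SNARE and tethering proteins carry out fusion. Neurons depend on basal autophagy, and mice without Atg5 or Atg7 in neural cells accumulate ubiquitin-positive inclusions. VCP is an ATPase that unfolds ubiquitinated proteins and pulls them out of larger assemblies, and it is known to take part in autophagosome formation and maturation.

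The libraries held 8.65 to 15.91 M counts (M for mega) over 1 transcript per gene. Expression is given as CPM (read counts per mega-count after TMM scaling), and a fold change is given on the log2 scale with its 95% confidence interval from edgeR's quasi-likelihood fit to all 14 libraries. The 6 excitatory neuron markers had reads in every library, with a summed level of 2163 to 3412 CPM. Transcripts of neighbouring tissue differed between single libraries. Summed choroid plexus markers reached 1293 CPM in WT replicate 3, against 30.3 to 70.9 CPM in the other WT libraries. They were at 15.5 to 599 CPM in DG/+ and at 25.5 to 32.5 CPM in DG/DG. Summed pituitary markers reached 4202 CPM in DG/DG replicate 1. Summed striatal markers reached 973 CPM in DG/+ replicate 4 and 843 CPM in DG/DG replicate 3. In the other libraries they were at 103 to 430.0 CPM. Vcp itself was at 85.3 to 104 CPM in WT (97.3 ± 8.32, SD, n = 4) and 92.2 to 104 CPM in DG/+ (n = 6). In DG/DG it was at 107 to 115 CPM (111 ± 4.59, n = 4), above both ranges. Of all genes tested, 1.43% were higher without overlap in DG/DG against WT and 0.803% in DG/DG against DG/+. The Vcp levels do not check the labels, because a transcript count does not show which allele it came from. By edgeR, DESeq2 or limma-voom, 0 of the 14565 genes had a Benjamini-Hochberg adjusted p under 0.05 in any of the 3 comparisons. In bulk tissue, fewer cells of a type and less RNA per cell cannot be told apart.

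The first question was how strongly the machinery is expressed in this tissue. Divided by transcript length, the median level of the 38 genes was 17.7 CPM per kb, against 8.62 CPM per kb for the 14314 tested genes with a length. The 5 ATG8 genes had the highest median of the role groups, 64.8 CPM per kb. Gabarapl1, a GABARAP-family ATG8 protein, stood at the top with 279.5 ± 20.2 CPM per kb (SD over 14 libraries), and its lowest library (241) lay above the highest library of every other member (96.4, Map1lc3a). Below it, Map1lc3a was at 83.8 ± 7.96, Gabarap at 64.8 ± 5.18, Nbr1 at 54.5 ± 2.20 and Map1lc3b at 53.6 ± 4.45 CPM per kb. Nbr1 and Map1lc3b, neighbours in this order, did not differ beyond their spread. Nbr1 encodes a cargo receptor that binds ubiquitin and ATG8 proteins.

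In the other roles the highest level per length was that of Atg9a, the transmembrane scramblase of the vesicles that seed the autophagosome (38.9 ± 3.14 CPM per kb). It was followed by the kinase gene Mtor (29.5 ± 1.5), whose product restrains initiation. Ulk2 led the initiation complex (26.4 ± 1.36 CPM per kb) and Becn1, the scaffold of the class III PI3-kinase, led nucleation (25.1 ± 1.13). Rab7, the late endosomal GTPase that directs fusion, was at 24.5 ± 2.57, and Atg16l1, which places the conjugation complex on the membrane, at 23.2 ± 1.91 CPM per kb. The ranges of Ulk2, Becn1, Rab7 and Atg16l1 over the 14 libraries overlapped. The 9 conjugation enzymes and proteases had a median of 13.2 CPM per kb, lower than that of the ATG8 proteins they process. At the bottom stood Stx17 (4.54 ± 0.252), Atg10 (4.50 ± 0.425), Atg4d (4.15 ± 0.421) and Tfeb (2.68 ± 0.647 CPM per kb), the last a transcription factor of lysosomal and autophagy genes. Reads per library ranged from 36 to 111 for Vamp8 and from 57 to 128 for Tfeb, the lowest of the list, and from 3789 to 8213 for Gabarapl1. How reads shared between related sequences were counted is not given in the sources used here, so levels within the ATG8 family are uncertain to that extent.

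**Figure D1:**
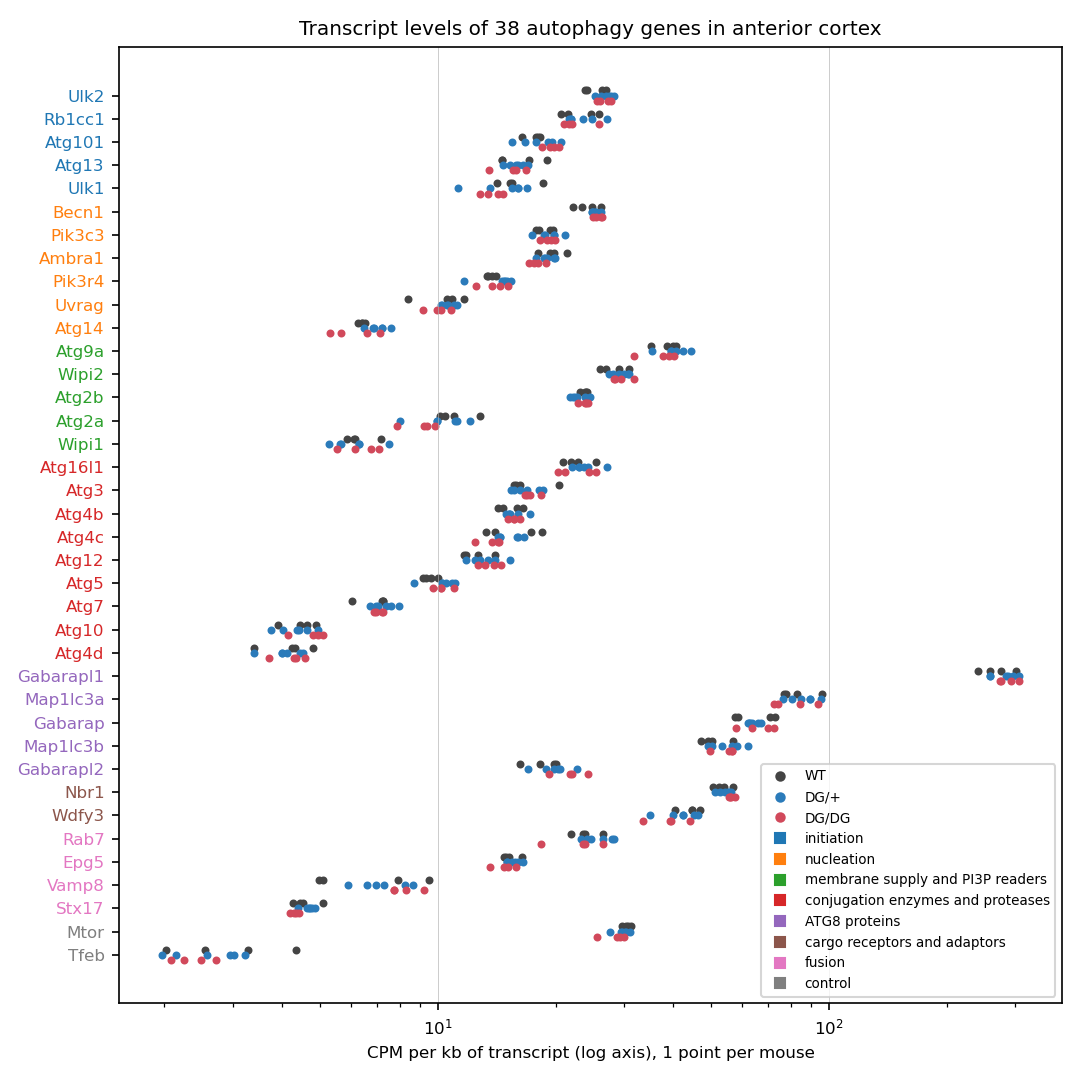
Level per transcript length of each of the 38 genes (x axis, CPM per kb, log axis) in each of the 14 mice (points coloured by genotype), with gene names coloured by role. Gabarapl1 lies apart at the top of the range (mean 279.5 CPM per kb) and Tfeb at the bottom (2.68), and the 3 genotypes lie on top of each other for most genes.

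Most paralogues differed in transcript level, and for the ATG8 genes the proportions were close in every mouse. Gabarapl1 held 55.7% of the summed ATG8 level per length (54.3% to 58.2% over the 14 libraries), Map1lc3a 16.7%, Gabarap 12.9%, Map1lc3b 10.7% and Gabarapl2 4.0%. Of the PI3P readers, Wipi2 held 82.3% against 17.7% for Wipi1. Among the listed ATG4 proteases, which trim and recycle ATG8 proteins, Atg4b held 45.0%, Atg4c 43.1% and Atg4d 12%. The shares of Atg4b (39.2% to 50.2%) and Atg4c (38.4% to 49.4%) overlapped over the 14 libraries. Atg4a, outside the 38 genes and at a mean of 2.72 CPM in WT, was not in this sum.

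The other pairs of paralogues, the ULK kinases and the lipid transfer proteins ATG2, had shares whose WT and DG/DG ranges did not overlap. Ulk1 made up 37.3%, 36.3%, 39.3% and 41.4% of the summed Ulk1 and Ulk2 level per length in the 4 WT mice. In the 4 DG/DG mice it made up 34.6%, 33.4%, 34.2% and 34.4%. The DG/+ mice ran from below the DG/DG range into the WT range, from 29.4% to 38.1%. Atg2a made up 30.2%, 31.7%, 29.7% and 35.7% of the summed Atg2a and Atg2b level in WT and 28.9%, 24.9%, 28.1% and 28.8% in DG/DG, with 25.2% to 34.7% in DG/+. Both shares were lower in every DG/DG mouse than in every WT mouse. In both pairs the gene with the smaller share in DG/DG had the higher GC content of its transcript, 58.0% for Ulk1 against 47.0% for Ulk2, and 60.0% for Atg2a against 50.3% for Atg2b. These shares do not depend on library scaling. The ATG2 share follows the levels of Atg2a, which did not overlap either, while the log2 fold change of Atg2b was -0.0034. In the ULK pair the levels of each gene overlapped, with Ulk1 at 73.9 to 97.1 CPM in WT and 66.9 to 76.4 CPM in DG/DG. Of all single genes tested, 2.62% had WT and DG/DG ranges that did not overlap. The families were set up after the levels had been seen, how often such shares separate among other gene pairs was not computed, no test was made of the shares, and the part of GC content in them was not tested.

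Promoters of the members were searched for the binding motif of TFEB, the member that acts as a transcription factor. RefSeq promoter windows of the GRCm38.p6 assembly, from 250 bases before to 50 after the start, were found for 30 of the 38 genes. The palindrome CACGTG (the same on both strands), the core of the E-box that TFEB and many other basic helix-loop-helix factors recognise, was in 4 of these 30 (13.3%) against 8.09% of all 27025 genes with a window. The 4 genes with CACGTG were Atg3, Atg5, Atg7 and Atg14, of which the first 3 belong to the conjugation group and have the motif wholly before the start, while in Atg14 it overlaps the start. The stretches of these 3 are shown because their products act in the same conjugation pathway. Capitals mark CACGTG, and each is read on the plus strand.
Atg7, chr6:114670934-114670999: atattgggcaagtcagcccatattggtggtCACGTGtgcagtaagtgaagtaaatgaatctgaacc
Atg5, chr10:44268295-44268338: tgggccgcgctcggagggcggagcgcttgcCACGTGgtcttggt
Atg3, chr16:45158705-45158793: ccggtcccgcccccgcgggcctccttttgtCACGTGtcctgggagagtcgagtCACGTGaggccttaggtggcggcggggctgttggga
The motif begins 132 bases before the start in Atg7, 14 in Atg5, and 94 and 71 in Atg3, which holds 2 copies. The starts used for Atg7 and Atg5 lie inside the annotated spans of these genes, and so do their motifs. These spans are chromosome 6, 114643127 to 114860604 for Atg7 and chromosome 10, 44268322 to 44364299 for Atg5. The Atg5 motif lies at the edge of its span, whereas the start used for Atg7 and its motif lie far inside. A match to these letters is a description and does not show that a factor binds there.

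The comparison of DG/DG with WT asks whether 2 copies of the mutant allele go with other levels of autophagy transcripts. No member had an adjusted p under 0.05, and the smallest adjusted p of a member was 0.886. The estimates were small in both directions. Of the 38 genes, 21 had a higher and 17 a lower estimate in DG/DG (50.1% of all genes tested were higher), and the median log2 fold change was 0.014 against 0.00028 for all genes tested. The data bound the size of any difference: for 36 of the 38 genes (94.7%) the 95% interval lay within 1.5-fold either way, against 71.5% of all genes tested. The exceptions were Tfeb and Vamp8, the members with the fewest reads. At an unadjusted p under 0.05 there were 2 of 38 genes (5.26%), Atg2a lower and Gabarapl2 higher, against 5.12% of all genes tested, which is nearly the same share. The WT and DG/DG ranges did not overlap for 2 of 38 genes, Atg101 higher and Atg2a lower, against 2.62% of all genes (1.43% higher and 1.19% lower).

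**Figure D2:**
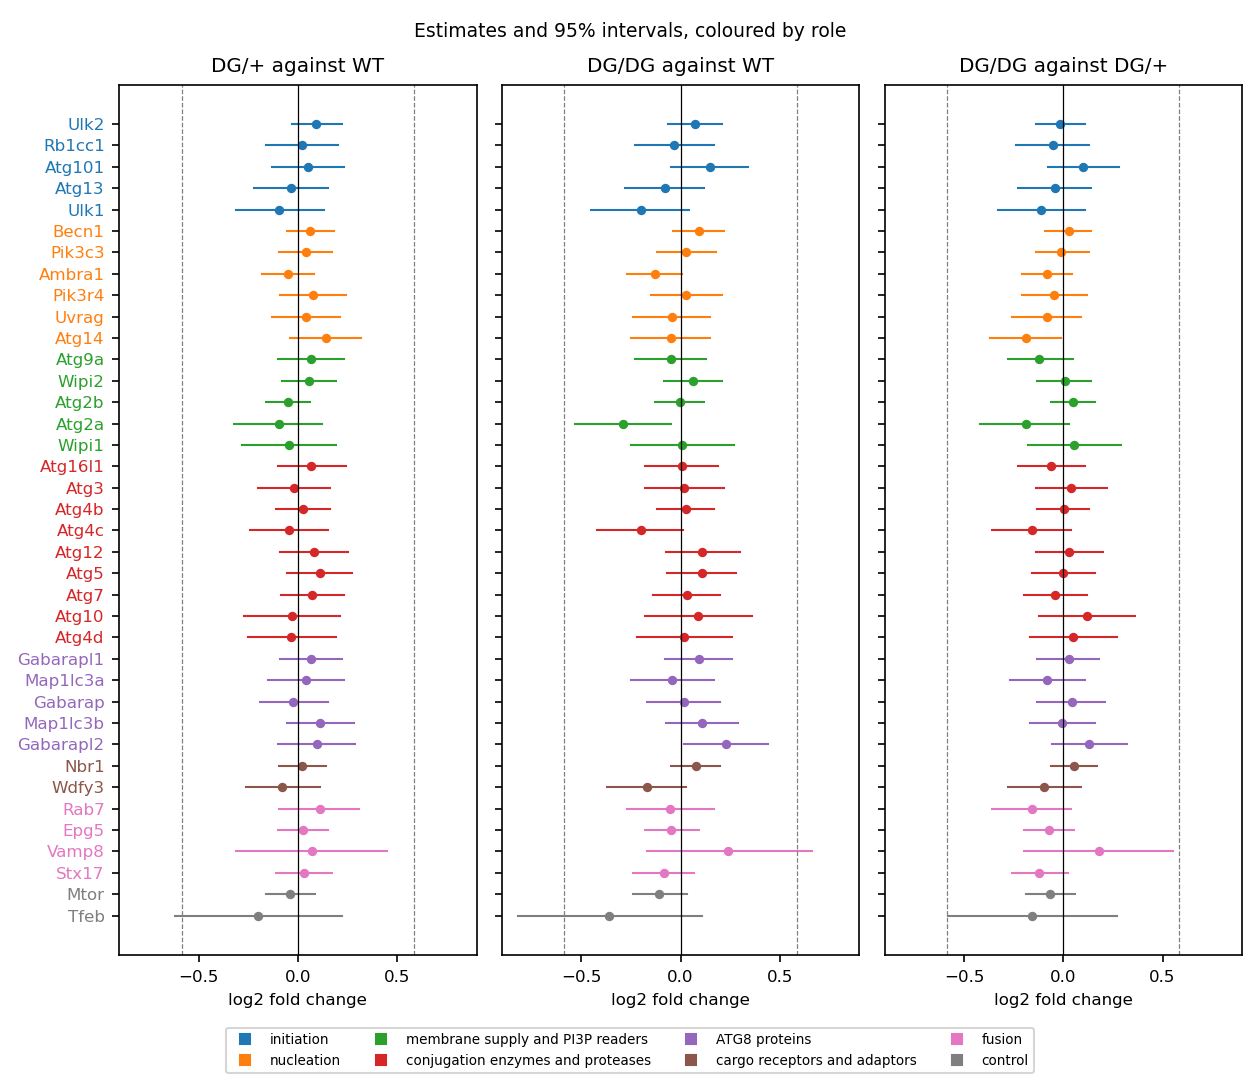
Estimated log2 fold change (points) and 95% confidence interval (lines) of each of the 38 genes in the 3 comparisons, from edgeR's quasi-likelihood fit, coloured by role; dashed lines mark 1.5-fold in either direction. Nearly all intervals include 0, and in DG/DG against WT those of 36 of 38 genes stay inside the dashed lines.

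In the initiation complex, 2 of 5 estimates were higher and 3 lower in DG/DG than in WT, with a median of -0.033. Atg101, a subunit that stabilises ATG13 (chromosome 15, 101284301 to 101290947), was at 22.6, 20.8, 23.2 and 22.9 CPM in WT, at 19.7 to 26.2 CPM (median 23.4) in DG/+, and at 23.5, 25.9, 24.6 and 25.1 CPM in DG/DG. All 4 DG/DG mice lay above all 4 WT mice, while the DG/+ mice spread beyond both groups. The estimate was 0.15 (SE 0.092, -0.047 to 0.34; edgeR adjusted p = 0.886). Ulk1, the initiating kinase, was at 82.9 ± 9.92 CPM in WT and 72.0 ± 4.29 CPM in DG/DG, which is a log2 fold change of -0.20 (-0.45 to 0.040). Its paralogue Ulk2 was at 145 ± 9.02 and 153 ± 5.91 CPM (0.075, -0.061 to 0.21). Atg13 and Rb1cc1 (FIP200), the scaffolds of the complex, had estimates of -0.080 and -0.033.

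In the nucleation complexes, 3 of 6 estimates were higher and 3 lower, with a median of -0.0082. Becn1 (chromosome 11, 101288258 to 101302286) was at 108, 102, 114 and 96.9 CPM in WT and at 114, 109, 115 and 111 CPM in DG/DG, with 108 to 114 CPM (median 109) in DG/+. The groups overlapped, and the log2 fold change of 0.091 had an interval of -0.038 to 0.22 (edgeR adjusted p = 0.889). Ambra1, a regulator that binds Beclin 1 (chromosome 2, 91730138 to 91918849), was at 103, 101, 93.6 and 111 CPM in WT and at 94.1, 88.9, 98.6 and 91.9 CPM in DG/DG, with 92.9 to 104 CPM (median 98.3) in DG/+. WT replicate 3 lay among the DG/DG mice, and the log2 fold change was -0.13 (-0.27 to 0.0089; edgeR adjusted p = 0.886). With a correction for transcript length and GC content it was -0.059. The lipid kinase Pik3c3 and its subunit Pik3r4 both had an estimate of 0.029, and Uvrag, the subunit of the endosomal form of the complex, -0.045.

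Among membrane supply and PI3P reader genes, 2 of 5 estimates were higher and 3 lower, with a median of -0.0034. Atg2a, which moves lipids into the growing membrane (chromosome 19, 6241478 to 6262304), had the smallest p of the 38 genes. It was at 66.3, 70.2, 64.7 and 81.7 CPM in WT and at 58.9, 50.0, 59.9 and 62.5 CPM in DG/DG, so that every DG/DG mouse lay below every WT mouse. The 6 DG/+ mice were at 51.1 to 76.8 CPM (median 67.1) and spanned both groups. DG/DG differed from WT by a log2 fold change of -0.29 (SE 0.11, -0.53 to -0.046; edgeR unadjusted p = 0.0228, adjusted p = 0.886). With the correction for length and GC content the estimate was -0.13 (edgeR unadjusted p = 0.0459, adjusted p = 0.975). In the authors' deposited table Atg2a was the only member with a p under 0.05 in DG/DG, where its log2 fold change was -0.27, with a p-value of 0.0367 and a false discovery rate of 1. Gabarapl2 had a p-value of 0.105 in the authors' deposited table. Atg2b, the paralogue, was at 179 ± 3.59 CPM in WT and 179 ± 4.95 CPM in DG/DG, which is a log2 fold change of -0.0034 (-0.13 to 0.12). Atg9a, Wipi1 and Wipi2 had estimates of -0.050, 0.0091 and 0.063.

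The lowest Atg2a values belonged to DG/DG replicate 2 (50.0 CPM) and DG/+ replicate 4 (51.1 CPM). The same mice had the lowest levels of Wdfy3 (479 and 498 CPM), Mtor (218 and 236 CPM) and Ulk1 (66.9 and 58.7 CPM). They also had the lowest summed levels of the 4 endothelial markers, 91.0 and 94.2 CPM against 121 to 154 CPM in the other 12 libraries. All 4 endothelial markers had reads in every library. Other markers did not set these mice apart together. Summed excitatory neuron markers were 2483 and 2199.6 CPM in them, but lowest in DG/DG replicate 3 (2163 CPM), and summed striatal markers were 136 and 973 CPM. The part of the endothelial difference in the Atg2a and Wdfy3 values was not tested.

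Among conjugation enzymes and proteases, 8 of 9 estimates were higher, all small, with a median of 0.028. The exception was Atg4c (chromosome 4, 99189159 to 99297258), a protease of ATG8 proteins. Its levels were 44.6, 58.7, 42.2 and 55.0 CPM in WT and 45.2, 45.6, 43.6 and 39.5 CPM in DG/DG, with 45.4 to 52.7 CPM (median 48.3) in DG/+. The WT mice formed a wide range in which replicates 2 and 4 were high, and the DG/DG mice lay in its lower part or under it. Its estimate was -0.20 (-0.42 to 0.012; edgeR adjusted p = 0.886), and -0.12 without WT replicate 2. With the length and GC correction it was -0.25 (edgeR unadjusted p = 0.0193, adjusted p = 0.975). The largest positive estimates were 0.11 each for Atg12, the ubiquitin-like protein, and Atg5, its conjugation partner. Atg10 and Atg7, the enzymes that join those proteins, had 0.088 and 0.030, and Atg3, the enzyme that passes ATG8 proteins to lipid, 0.019. Among the genes with CACGTG before the start used, Atg5, Atg7 and Atg3, the intervals all included 0.

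Of the 5 ATG8 genes, 4 had a higher estimate in DG/DG, with a median of 0.094. Gabarapl2, also known as GATE-16 (chromosome 8, 111940703 to 111952915), was at 33.7, 30.6, 33.2 and 27.2 CPM in WT and at 36.6, 37, 40.5 and 32.2 CPM in DG/DG. The DG/+ mice spread across both groups, at 28.6 to 38 CPM (median 33.6). WT and DG/DG overlapped, since DG/DG replicate 4 lay below 2 of the WT mice. The log2 fold change was 0.23 (SE 0.099, 0.018 to 0.44; edgeR unadjusted p = 0.0351, adjusted p = 0.886). With the length and GC correction it was 0.15 (edgeR unadjusted p = 0.0944, adjusted p = 0.975). Map1lc3b had an estimate of 0.11 (-0.076 to 0.29), Gabarapl1 of 0.094 (-0.077 to 0.26), Gabarap of 0.018 and Map1lc3a of -0.043. Lipidated LC3, the usual protein readout of autophagosomes, is not measured by transcript counts.

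The 2 cargo genes differed in sign. Nbr1 (chromosome 11, 101552107 to 101581951) was at 265, 251, 235 and 243 CPM in WT and at 268, 258, 262 and 259.7 CPM in DG/DG, with 238 to 262 CPM (median 255) in DG/+. The DG/DG mice lay close together, within or just above the upper part of the WT range, and the log2 fold change was 0.076 (-0.049 to 0.20; edgeR adjusted p = 0.901). Wdfy3 (ALFY), the adaptor for protein aggregates (chromosome 5, 101832953 to 102072215), was at 578, 636, 637 and 667 CPM in WT and at 564, 479, 559.8 and 630.4 CPM in DG/DG, with 498 to 659 CPM (median 604) in DG/+. Only DG/DG replicate 4 lay within the WT range. This gave a log2 fold change of -0.17 (-0.37 to 0.027; edgeR adjusted p = 0.886), and -0.079 with the length and GC correction.

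Of the 4 fusion genes, 1 estimate was higher and 3 lower. Vamp8, a SNARE of the lysosomal side, had 0.24 (-0.17 to 0.66), Stx17, the SNARE of the autophagosome, -0.086 (-0.24 to 0.068), Rab7 -0.054 and the tether gene Epg5 -0.046. Both control genes had lower estimates. Mtor was at 261 ± 5.63 CPM in WT and 243 ± 17.1 CPM in DG/DG (-0.11, -0.24 to 0.030). Tfeb (chromosome 17, 47737037 to 47792416) was at 10.1, 5.90, 4.71 and 7.63 CPM in WT and at 6.29, 5.76, 4.84 and 5.23 CPM in DG/DG, so the WT mice alone spanned the whole DG/DG range. Its log2 fold change of -0.36 had the widest interval of the list, -0.82 to 0.11. In a fit without 4 libraries it was -0.75 (edgeR unadjusted p = 0.00541, adjusted p = 0.739). These 4 were WT replicate 2 and DG/+ replicate 2 (summed cerebellar markers 53.0 and 67.8 CPM), WT replicate 3 (choroid plexus) and DG/DG replicate 1 (pituitary). Of the WT mice, that fit kept only replicates 1 and 4, which had the highest Tfeb levels of WT (10.1 and 7.63 CPM). That fit still held DG/+ replicates 1 and 5, with summed choroid plexus markers of 569 and 599 CPM. It also held DG/+ replicate 4 and DG/DG replicate 3 with their striatal markers.

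**Figure D3:**
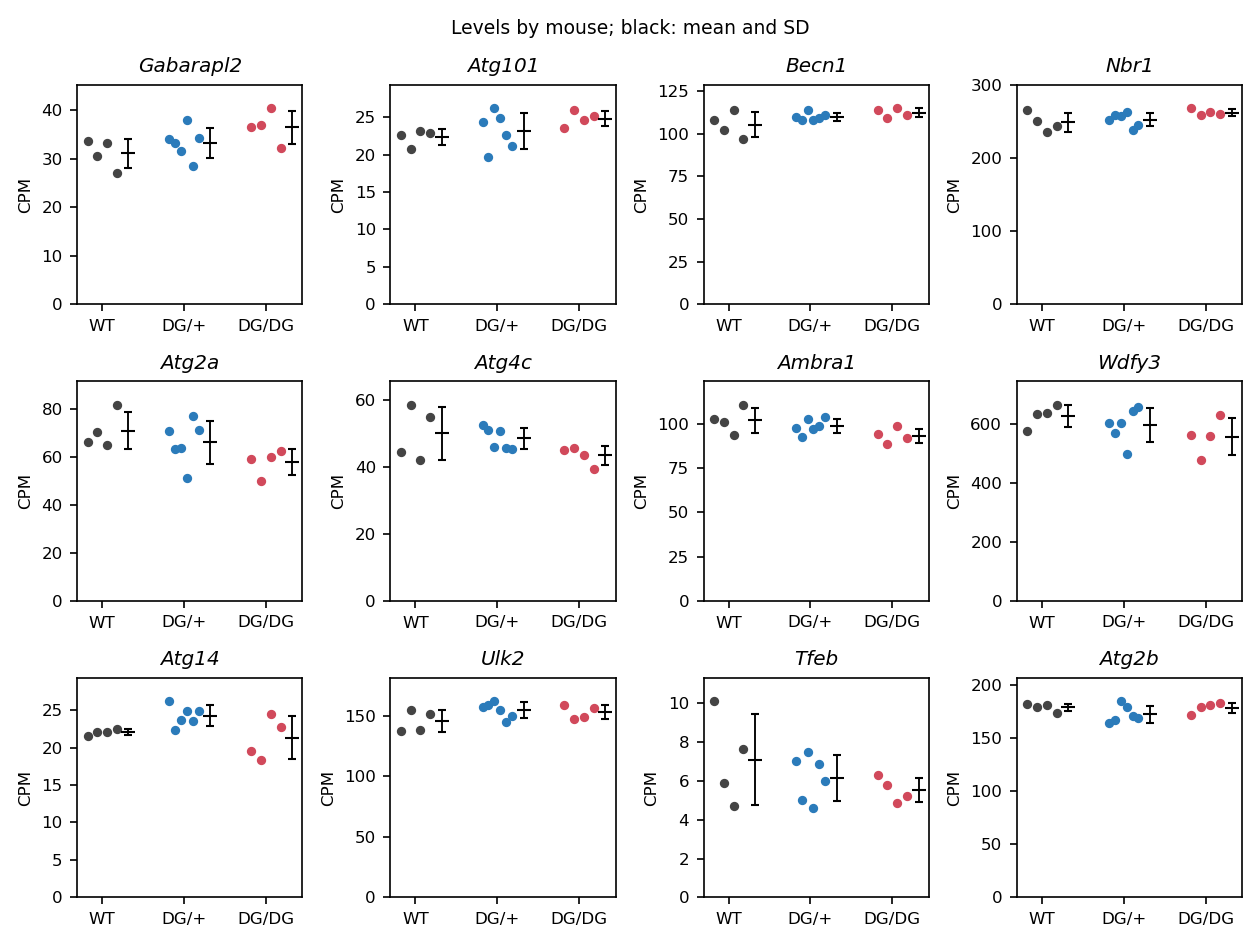
CPM in each mouse (coloured points) of 12 genes, with the mean and SD of each genotype in black. The genes are those with the smallest p in each direction, 4 in DG/DG against WT and 2 in each other comparison. Each y axis starts at 0. Atg2a is lower and Atg101 higher in all 4 DG/DG mice than in all 4 WT mice, while the genotypes overlap between WT and DG/DG in the other 10 genes.

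The comparison of DG/+ with WT concerns the heterozygous state. No member had an adjusted p under 0.05 (all at 1), and 0 of 38 had an unadjusted p under 0.05, against 1.60% of all genes tested (0.755% higher and 0.844% lower). No member's WT and DG/+ ranges were separate, against 0.316% of all genes. The estimate was higher in DG/+ for 24 and lower for 14 of the 38 genes (47.3% of all genes tested were higher), with a median of 0.035 against -0.0068. For 37 of 38 genes (97.4%) the interval lay within 1.5-fold either way, against 76.8% of all genes, and the exception was Tfeb.

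The largest estimate in DG/+ was that of Atg14, the subunit that brings the class III PI3-kinase to the autophagosome (chromosome 14, 47540893 to 47568434). It was at 21.5, 22.1, 22.1 and 22.5 CPM in WT and at 26.2, 22.3, 23.7, 24.9, 23.6 and 24.9 CPM in DG/+. The 4 WT mice were almost equal, and only DG/+ replicate 2 fell within their range. The log2 fold change was 0.14 (-0.040 to 0.32; edgeR adjusted p = 1). Ulk2 (chromosome 11, 61775598 to 61855334) was at 137, 155, 138 and 151 CPM in WT and at 145 to 162 CPM (median 156) in DG/+, with overlap and a log2 fold change of 0.093 (-0.031 to 0.22). On the lower side were Tfeb, at 4.59 to 7.49 CPM (median 6.41) in DG/+ (-0.20, -0.62 to 0.22), and Atg2b (chromosome 12, 105613539 to 105685297). Atg2b was at 182, 179, 181 and 174 CPM in WT and 164 to 185 CPM (median 170.3) in DG/+, a log2 fold change of -0.052 (-0.16 to 0.060). The Tfeb estimate was 0.033 without WT replicate 1 and -0.48 in the fit without the 4 libraries named above (edgeR unadjusted p = 0.0334, adjusted p = 1). The latter fit kept only replicates 1 and 4 of the WT mice. All 4 fusion genes had higher estimates, 0.028 to 0.11.

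The comparison of DG/DG with DG/+ shares the DG/DG mice with the first comparison and the DG/+ mice with the second, so the 3 sets of estimates are not independent. No member had an adjusted p under 0.05 (smallest 0.972). At an unadjusted p under 0.05 there was 1 of 38 genes (2.63%), Atg14, lower in DG/DG, against 3.30% of all genes tested (1.68% higher and 1.62% lower). The ranges of the 2 groups overlapped for every member, while they were separate for 1.21% of all genes (0.803% higher and 0.405% lower). Estimates were higher for 15 and lower for 23 genes (50.6% of all genes were higher), with a median of -0.030 against 0.0023. All 38 intervals lay within 1.5-fold either way, against 76.0% of all genes.

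Atg14 in DG/DG was at 19.5, 18.3, 24.5 and 22.8 CPM. Replicates 1 and 2 lay below every other mouse of the study, and replicates 3 and 4 lay within the DG/+ range. Against DG/+ the estimate was -0.19 (SE 0.084, -0.37 to -0.0098; edgeR unadjusted p = 0.0400, adjusted p = 0.972). Since DG/+ lay above WT and DG/DG about level with it (-0.050 against WT), the means of Atg14 did not follow the number of DG alleles. Without DG/DG replicate 2 the unadjusted p was 0.167 by edgeR and the adjusted p was likewise above 0.05. Atg2a was -0.19 (-0.42 to 0.029) in this comparison, Gabarapl2 0.13 (-0.056 to 0.32) and Atg101 0.098 (-0.079 to 0.28). For these genes the DG/+ mean lay between those of WT and DG/DG, at 66.1 CPM for Atg2a (70.7 in WT, 57.8 in DG/DG), 33.3 CPM for Gabarapl2 (31.2 and 36.6) and 23.1 CPM for Atg101 (22.4 and 24.8).

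The members varied little between mice of a genotype. Their median SD within a genotype was 0.12 on the log2 scale, from 0.050 for Atg2b to 0.30 for Tfeb. This compares with 0.18 for all genes tested and 0.15 for the 11047 genes in the same range of mean CPM. Single libraries nonetheless stood out. DG/DG replicate 2 was the lowest of the 14 libraries for 11 of the 38 genes and the highest for none, with a median deviation of -0.040. WT replicate 4, the shallowest library at 8.65 M counts, was the lowest for 7 genes and the highest for 7. DG/+ replicate 3 was the highest for 7 genes, with a median deviation of 0.063. In DG/DG replicate 2 the genes for membrane supply had a median deviation of -0.17 and the conjugation genes of 0.066, and in DG/+ replicate 4 these values were -0.13 and 0.090. The role groups therefore did not shift together in these libraries.

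**Figure D4:**
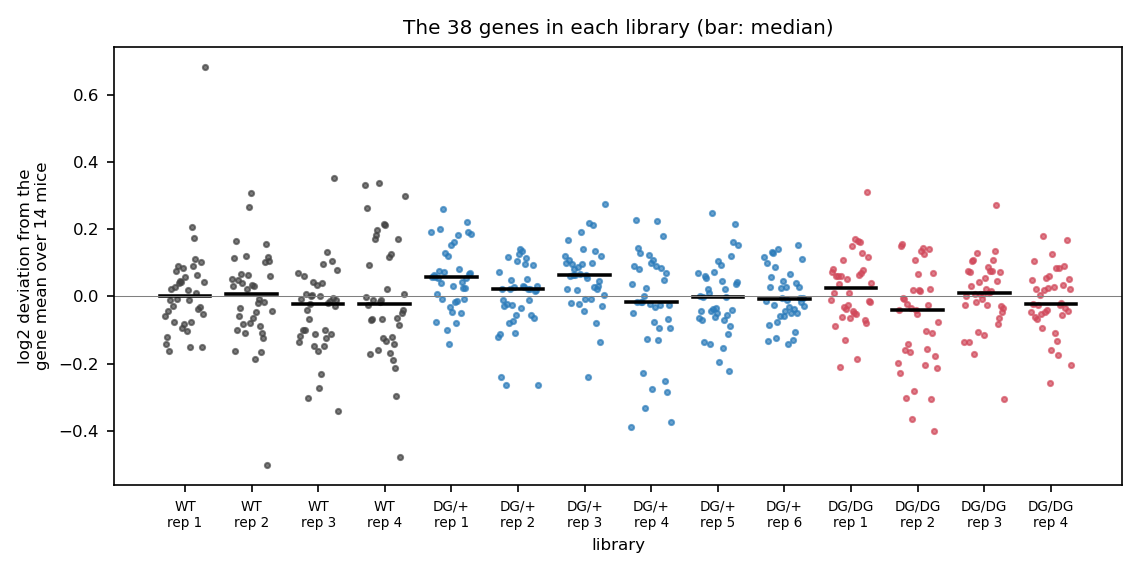
Deviation of each of the 38 genes from its mean over 14 mice (y axis, log2 units; points) in each library (x axis), with the library's median as a bar. Medians lie between -0.040 (DG/DG replicate 2) and 0.063 (DG/+ replicate 3), while single genes lie much further out, above all Tfeb at the top of WT replicate 1 and Vamp8 at the bottom of WT replicate 2.

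Fold changes of DG/DG against WT were related to the GC content and length of the transcripts across genes, and genes are not independent replicates. Spearman's rho with GC content was -0.26 over the 38 genes and -0.29 over 14314 genes tested, and with length -0.44 and -0.11. Tfeb (61.4% GC), Atg2a (60.0%) and Ulk1 (58.0%) were GC-rich members with estimates at or below -0.20. Others went against this order: Map1lc3a, the most GC-rich member at 63.1%, had an estimate of -0.043, Atg9a at 57.5% had -0.050, Atg101 at 58.0% had 0.15, and Atg4c at 44.0% had -0.20. With an offset for length and GC content fitted in each library, Ulk1 changed from -0.20 to -0.082 and Tfeb from -0.36 to -0.24, while Atg4c changed from -0.20 to -0.25 and Atg101 from 0.15 to 0.17.

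**Figure D5:**
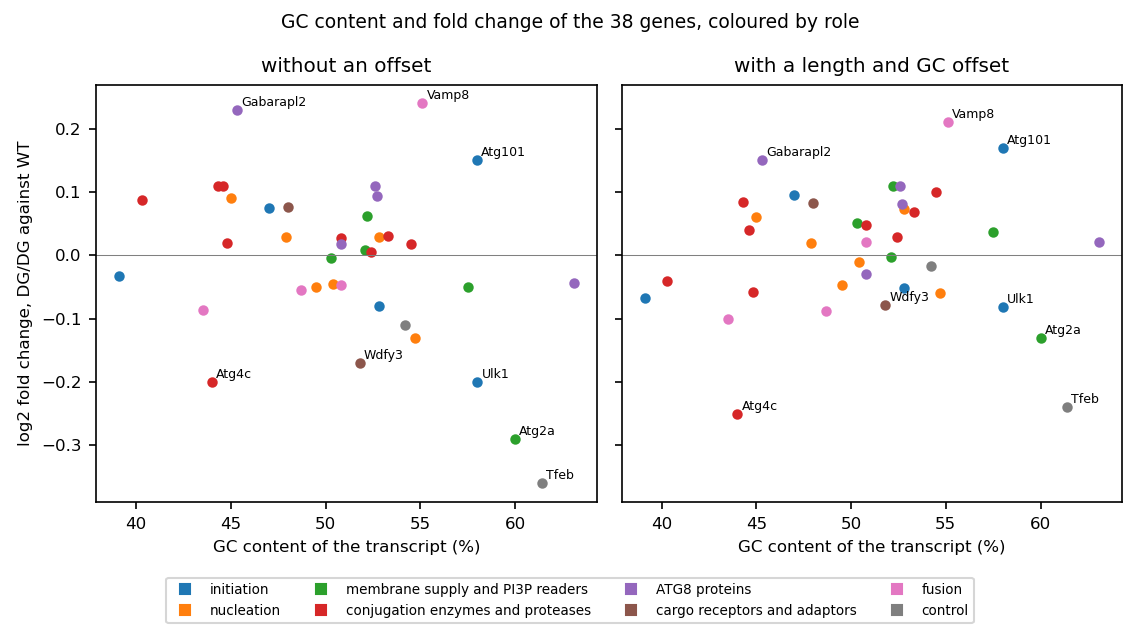
Log2 fold change of DG/DG against WT (y axis) against transcript GC content (x axis, percent) for the 38 genes, coloured by role, without (left) and with (right) an offset for length and GC content. Tfeb, Atg2a and Ulk1 lie at the lower right without the offset and nearer to 0 with it, whereas Atg4c (-0.20 and -0.25) and Atg101 (0.15 and 0.17) lie slightly further from 0 with it.

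A list of 58 further genes of the pathway was read in the same way, and all 58 were tested. None had an adjusted p under 0.05 in any comparison. In DG/DG against WT, 0 had an unadjusted p under 0.05 with a higher level (2.14% of all genes) and 2 with a lower level (2.98% of all genes), with a median log2 fold change of 0.0037. These were Fyco1, an adaptor that links autophagosomes to kinesin (67.9 ± 11.1 CPM in WT and 53.5 ± 5.73 CPM in DG/DG; -0.34, -0.61 to -0.072), and Plekhm1, a RAB7 effector in fusion (34.3 ± 5.15 and 28.5 ± 2.86 CPM; -0.26, -0.49 to -0.037). The next was Rheb, the GTPase that activates mTORC1, at 68.7 ± 2.43 and 76.3 ± 3.01 CPM (0.15, -0.0053 to 0.31). In DG/+ against WT the counts were 0 higher and 0 lower (0.755% and 0.844% of all genes). In DG/DG against DG/+, 2 of 58 were higher at an unadjusted p under 0.05 (Atg9b and Rheb, 0.53 and 0.17; 1.68% of all genes) and 1 was lower (Plekhm1, -0.24; 1.62% of all genes). Sqstm1 (p62), the receptor that accumulates as protein when autophagy is blocked, was at 399 ± 43.9 CPM in WT, 378 to 426 CPM in DG/+ (mean 406) and 413 ± 39.9 CPM in DG/DG, and its log2 fold change in DG/DG against WT was 0.049 (-0.13 to 0.23).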

How the data were processed

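RNA of 14 anterior cortices, 1 mouse each by the mouse numbers in the labels, was analysed from the authors' deposited table of 24939 RefSeq transcripts. It holds raw read counts deposited by the authors, which all tests here used, and values the authors normalized on a log2 scale, with the same maximum in every library. The authors' edgeR log2 fold changes, p-values and false discovery rates against WT are also in the deposited table. The submitters' processing notes name mm10 and edgeR. The aligner, the counting tool and the use of strand were not given in the sources used here, so reads of genes overlapping on opposite strands cannot be told apart. WT mouse numbers and replicate numbers differ for 3 of 4 mice, and replicates are named by replicate number.

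For each symbol the transcript with the most counts was kept. The 38 genes had 44 transcripts: Atg16l1 and Tfeb had 3 each, Ambra1 and Atg4c 2 each. In R 4.3.3 with edgeR 4.0.16, filterByExpr left 14565 genes. The robust quasi-likelihood model with TMM scaling was fitted to all 14 libraries, with Benjamini-Hochberg adjustment over all genes tested. Depth was 8.65 to 15.91 M counts (M for mega) per library, and precision is given by 95% intervals. Lengths and GC contents came from GENCODE M21 transcripts linked by RefSeq accession, coordinates and promoters from RefSeq tables of GRCm38.p6.

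The members, role groups, pathway list and marker lists were chosen with earlier results of these data known. Given in full were the 4 members with the smallest p in each direction in DG/DG against WT, the 2 in each direction in the other comparisons, and the member with the highest level per length in each role. Other genes were named after their values were seen. Alternatives were DESeq2 1.42.0, limma 3.58.1 (voom), other scalings and filters, only the 2 genotypes compared, a replicate block, other transcript choices, removal of libraries, a length and GC offset fitted by lowess, and a threshold of 0.1. Limma-trend on the authors' log2 values was added after seeing the data.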

Additional observations from a re-analysis of the deposited data

Results flagged for a closer look

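Within each genotype, the highest and the lowest mouse of each of the 38 genes were compared with the rest by Dixon's ratio, which made 114 groups. In 5 of them 1 mouse lay further from the others than the 95% critical value, and chance gives about 1 in 20. Pik3r4 was at 55.4 CPM in DG/+ replicate 2, below the 69.6 to 73.1 CPM of the other DG/+ mice. Atg3 was at 42.1 CPM in WT replicate 2, above 32.3 to 33.3 CPM in the other WT mice. Atg5 was at 20.5 CPM in DG/+ replicate 5, below 24.1 to 26.1 CPM. Atg7 was at 22.7 CPM in WT replicate 3, below 27.1 to 27.3 CPM. Map1lc3b was at 126 CPM in DG/DG replicate 2, below 141 to 143 CPM.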

How the results depend on the processing

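By edgeR and every alternative run, 0 genes of the whole table had an adjusted p under 0.05, and in the fit as reported 0 had one under 0.1. At an unadjusted p under 0.05, DESeq2 gave 727, 211 and 473 genes and limma-voom 633, 251 and 484, against 746, 233 and 481 with edgeR (DG/DG against WT, DG/+ against WT, DG/DG against DG/+). The median log2 fold change of the 38 genes in DG/DG against WT was -0.026 to 0.020 when each library was left out in turn, lowest without WT replicate 3 and also below 0 without DG/DG replicate 1 (-0.00074) or 3 (-0.0011), as it was without WT replicates 2 and 3, DG/+ replicate 2 and DG/DG replicate 1 together (-0.0057). In DG/DG against DG/+ it was -0.041 to -0.0012, the latter without DG/DG replicate 2, and the spread of library medians within a genotype was 0.029. Tfeb in DG/+ against WT was -0.36 to 0.033, reversed without WT replicate 1. In DG/DG against WT the members at an unadjusted p under 0.05 numbered 0 without WT replicate 4 (2.35% of all genes in that fit) or DG/DG replicate 2 (5.13%) and 6 without WT replicate 3 (9.32%), namely Ambra1, Atg2a, Atg4c, Gabarapl2, Tfeb and Vamp8. Atg2a had an unadjusted p under 0.05 in 12 of 14 fits without a library and in 13 of 13 other alternatives, Gabarapl2 in 9 of 14 and 9 of 13, and Atg14 in DG/DG against DG/+ in 9 of 14 and 10 of 13. The smallest adjusted p of these genes was 0.451 (Atg2a), so none of these counts is a call. The cause of these changes was not tested. Tfeb and Vamp8, with 57 to 128 and 36 to 111 reads per library, had the widest intervals.

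The correlations of deviations between mice did not settle whether the replicate numbers pair them. Of 12 pairs with the same number, 6 had a correlation over 0.1 (range -0.22 to 0.29). Their mean correlation was 0.040, against -0.0091 for pairs with different numbers. With the replicate block the medians of the 38 genes were 0.012 in DG/DG against WT, 0.055 in DG/+ against WT and -0.036 in DG/DG against DG/+. In the same order, the members at an unadjusted p under 0.05 numbered 1, 0 and 0, against 4.25%, 4.48% and 2.40% of all genes. Without the block these shares of all genes were 5.12%, 1.60% and 3.30%. With the block, 0 genes were called.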
